A study of Saccharomyces cerevisiae with 6 samples.

Results

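The genes described here are the cyclins that drive the budding yeast cell cycle and SIC1, the gene of an inhibitor of the cyclin-dependent kinase. They were taken by name, as the 3 G1 cyclin genes CLN1, CLN2 and CLN3, the 2 S phase cyclin genes CLB5 and CLB6, the 4 mitotic cyclin genes CLB1, CLB2, CLB3 and CLB4, and SIC1. All 10 were on the array with 1 probe set each, among 5656 genes measured by 6504 probe sets. Transcripts were compared between [GAR+] cells, which carry a protein-based heritable element, a prion that lets cells use other carbon sources when a glucose mimic is present, and [gar-] cells, which lack it. The [GAR+] cultures were 3 cultures of the laboratory strain W303, and the [gar-] cultures were 3 cultures of the same strain without the prion. All 6 were grown separately in complete synthetic medium with 2% glucose to late exponential phase, at an OD600 of about 0.8, and each was hybridised to 1 Affymetrix array. The labels name no other allele or agent, and nothing in them says what a [GAR+] and a [gar-] culture of the same number share.

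A cyclin binds the kinase Cdc28 and turns it towards a set of substrates, and one wave of cyclin synthesis follows another as the cell cycle proceeds. Cln3 acts first, by relieving the repressor Whi5 from the transcription factor SBF, which then induces CLN1 and CLN2, while the related factor MBF induces CLB5 and CLB6. Sic1 holds the Clb kinases inactive in G1 until it is phosphorylated and destroyed through the ubiquitin ligase SCF with Cdc4. Clb5 and Clb6 then start DNA replication, Clb3 and Clb4 help to build the spindle, and Clb1 and Clb2 drive mitosis, until the anaphase-promoting complex removes the Clb proteins and Swi5 induces SIC1 again. Glucose is known to raise CLN3 expression in yeast. In an unsynchronised culture the level of each of these transcripts mixes how many cells are in a phase with how much RNA each of them holds, and these cannot be told apart here.

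Levels below are quantile-normalized MAS5 signals, and signed differences are in log2(signal + 16), a scale that understates the change of dim genes. The arrays as deposited were not on one scale, with trimmed means of 192 to 500. The values of 1 gene outside the set are given as an example of a difference between the groups. They do not check which arrays are [GAR+]. HXT3, a low-affinity glucose transporter gene, read 58.7, 75.4 and 42.8 in [GAR+] cultures 1, 2 and 3, against 4404, 4347 and 3559 in [gar-] cultures 1, 2 and 3. A signal was taken as above background where it exceeded the highest of 16 control probe sets for sequences foreign to the sample, which read 15.1 to 20.2 on [GAR+] arrays and 12.7 to 27.6 on [gar-] arrays. Of the 10 genes, 9 were above that level on all 6 arrays. CLB6 was below it on all 6. Signals of different probe sets are on different scales, so no gene's level is set against another's.

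Among the G1 cyclins, CLN1 read 107, 186 and 129 in [GAR+] cultures 1, 2 and 3, against 109, 142 and 112 in [gar-] cultures 1, 2 and 3. CLN2 read 237, 246 and 315 in [GAR+] cultures, against 233, 205 and 252 in [gar-] cultures. In both genes the groups overlapped, and the highest value was a [GAR+] one. CLN1 and CLN2 encode closely related cyclins that trigger budding and the start of the cycle, yet in CLN1 the highest [GAR+] culture was number 2 and in CLN2 it was number 3. CLN3, the upstream G1 cyclin gene, read 240, 449 and 410 in [GAR+] cultures, against 215, 547 and 359 in [gar-] cultures. The spread of CLN3 within each group was far wider than the gap between the group means, which were 366 ± 111 in [GAR+] and 374 ± 167 in [gar-] (SD, n = 3 each).

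CLB5, the main S phase cyclin gene, read 160, 258 and 206 in [GAR+] cultures, against 176, 212 and 178 in [gar-] cultures. Culture 2 was the highest of each group, and the groups overlapped. CLB6 read 6.95, 14.2 and 8.24 in [GAR+] cultures, against 11.8, 12.3 and 9.44 in [gar-] cultures. These signals do not exceed the controls, so nothing is drawn from their order, and counts of the order of cultures below leave CLB6 out.

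Of the mitotic cyclins, CLB1 read 132, 187 and 197 in [GAR+] cultures, against 117, 243 and 175 in [gar-] cultures. CLB2, its close relative and the main mitotic cyclin gene, read 57.8, 124 and 95.3 in [GAR+] cultures, against 49.7, 92.9 and 62.4 in [gar-] cultures. At each culture number CLB2 was higher in [GAR+], by 1.16, 1.34 and 1.53 times for numbers 1, 2 and 3, but the 6 values overlapped between the groups. CLB3 read 236, 387 and 232 in [GAR+] cultures, against 276, 277 and 267 in [gar-] cultures. [GAR+] culture 2 was the highest of the 6 values, while the [gar-] values of CLB3 lay close together, at 273 ± 5.31 (SD, n = 3). CLB4 read 82.7, 122 and 111 in [GAR+] cultures, against 75.3, 115 and 81.8 in [gar-] cultures. Its order was the same in both groups, with culture 1 lowest and culture 2 highest.

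SIC1 read 247, 248 and 256 in [GAR+] cultures, against 259, 307 and 274 in [gar-] cultures. It was the 1 gene of the 10 whose groups did not overlap, with every [GAR+] value below every [gar-] value, though the nearest were 256 and 259. Groups failed to overlap in this direction for 4.44% of all tested probe sets, and in the other direction for 0 of 10 genes and 4.41% of the probe sets. The [GAR+] values of SIC1 lay close together, at 250.5 ± 4.65 (SD, n = 3), against 280 ± 24.6 (SD, n = 3) in [gar-].

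**Figure D1:**
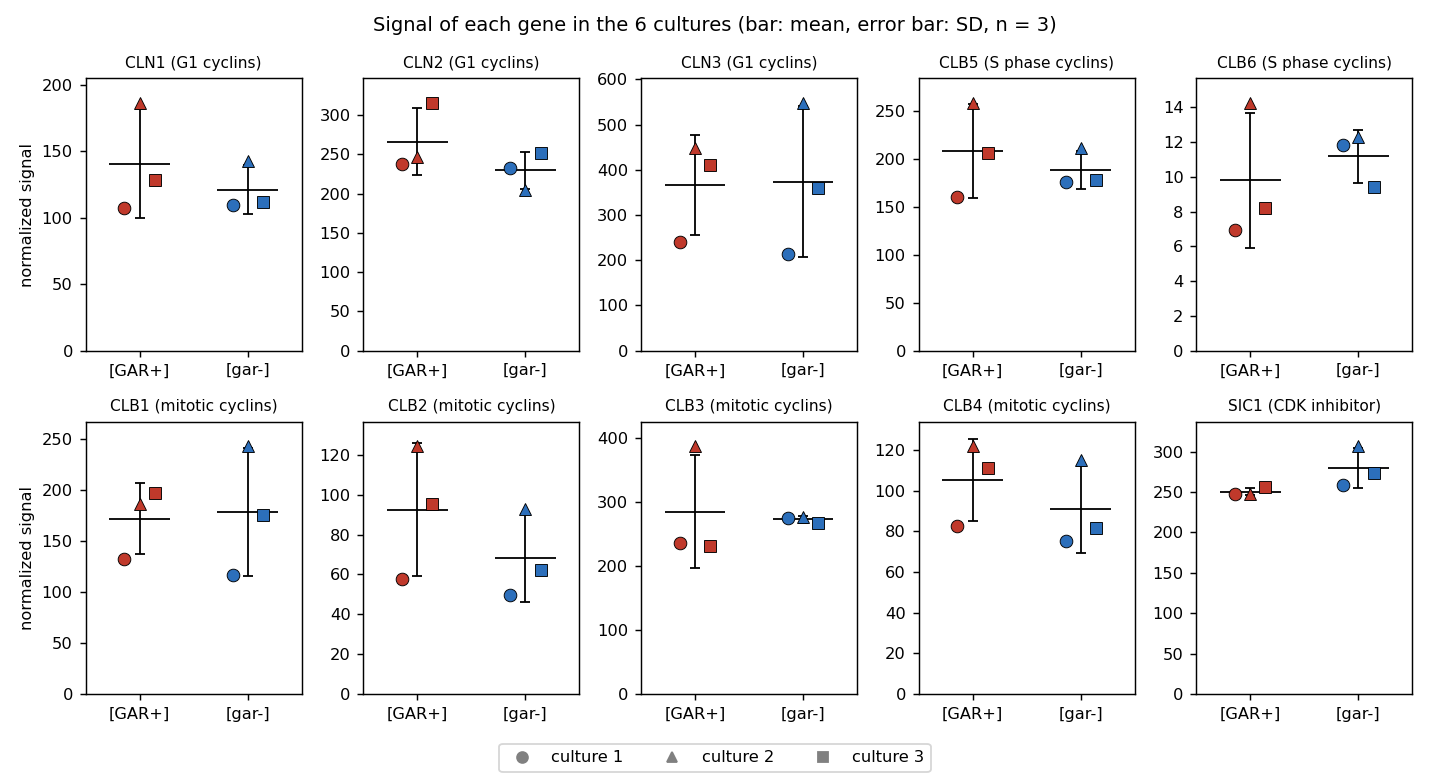
Normalized signal (linear axis from 0, a separate scale in each panel) of the 10 genes in [GAR+] (left, red) and [gar-] cultures (right, blue). Markers give the culture number, horizontal bars the mean and error bars the SD (n = 3). The markers of the groups overlap in every panel except SIC1, whose [GAR+] values end at 256 and whose [gar-] values begin at 259, and triangles (culture 2) are the highest in both groups for 6 of the 9 genes above the controls.

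Neither SIC1 nor any cyclin gene passed the test for a difference between [GAR+] and [gar-] cells. The test was limma over all 6504 probe sets with Benjamini-Hochberg adjustment, with a threshold of 0.05 on the adjusted p. With 0 of 10 genes passing, the background was 1 probe set of 6504, HXT3, or 0.0154% of those tested. At an unadjusted p under 0.05 there were 0 of 10, against a background of 2.98%. The log2 differences lay between -0.15 for SIC1 and 0.35 for CLB2, with a median of 0.07 over the 10 genes, beside 0.01 over all tested probe sets. The value of CLB2 was 0.14 without [GAR+] culture 2, 0.18 without [gar-] culture 1, 0.60 without [GAR+] culture 1 and 0.55 without [gar-] culture 2. That of SIC1 was -0.0818 without [gar-] culture 2. Of the 10, 7 were above 0 and 3 below, and over all tested probe sets 51.8% were above 0.

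The intervals show what size of change these arrays would have left room for. For SIC1 the fold of [GAR+] over [gar-] was 0.903 (95% confidence interval 0.712 to 1.15). It was 1.27 (0.840 to 1.92) for CLB2, 1.14 (0.871 to 1.50) for CLN2, 1.12 (0.807 to 1.56) for CLN1 and 1.14 (0.832 to 1.56) for CLB4. The widest interval was that of CLN3, 1.01 (0.606 to 1.69). CLB5 gave 1.08 (0.796 to 1.47), CLB1 0.990 (0.665 to 1.47) and CLB3 1.01 (0.731 to 1.40). On that scale all 10 intervals lay within 2-fold in either direction, as did those of 96.1% of all tested probe sets. For CLB2, whose interval reached 1.92, the ratio of mean signals was 1.35. Its log2 difference with a pseudocount of 1 was 0.41. Intervals for the signal itself are not given, so the 2-fold limit holds for signal + 16 only. For CLB6 the interval sets no limit on a real change, because the gene read below the controls.

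Cultures were also compared within each number, since [GAR+] and [gar-] arrays of the same number deviated together from their group means. CLN2, CLB2 and CLB4 were higher in [GAR+] at all 3 numbers and SIC1 was lower at all 3, so 3 and 1 of 10 genes lay on one side, against backgrounds of 15.4% and 13.5%. With the number as a block in limma, CLB2 had an unadjusted p of 0.0459, against 0.225 without the block, and its adjusted p was 0.735. It was 1 of 10 genes under 0.05 unadjusted, where the background was 6.78%. No member passed with the block (0 of 10, background 0.0154%).

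**Figure D2:**
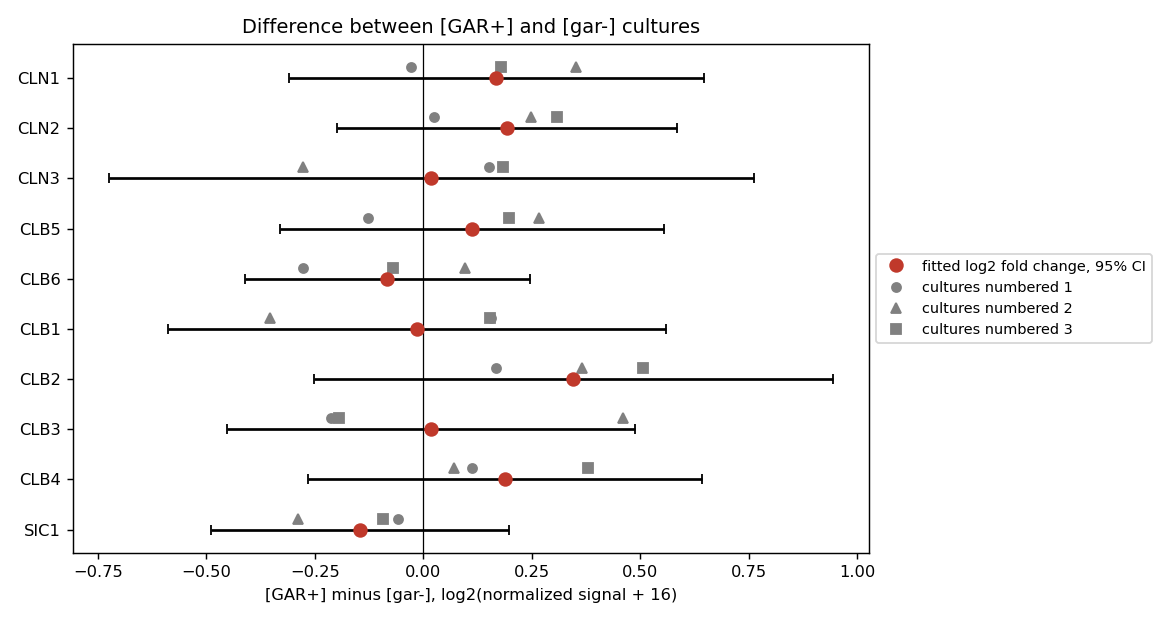
Difference between [GAR+] and [gar-] in log2(normalized signal + 16), 1 row per gene. Red points and black bars are the limma estimate and its 95% confidence interval, and grey markers above them the difference between cultures of the same number. All intervals cross 0, from -0.15 for SIC1 to 0.35 for CLB2, and the 3 grey markers lie on one side of 0 only for CLN2, CLB2, CLB4 and SIC1.

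Within each group, several of these genes were ordered by the culture number. CLN3 was lowest in culture 1 and highest in culture 2 of each group, by 1.87 times in [GAR+] and 2.55 times in [gar-]. CLB2 showed the same order, culture 2 being 2.15 times culture 1 in [GAR+] and 1.87 times in [gar-]. The order from culture 1 through culture 3 to culture 2 was shared by both groups for CLN1, CLN3, CLB5, CLB2 and CLB4. These were 5 of the 9 genes above the controls, against 6.69% of all tested probe sets. That order was picked from the values of these same genes, so the comparison is no test of it. With any order allowed, both groups had the same one for 6 of the 9, beside 27.9% of all tested probe sets. Culture 2 was the highest of both groups for 6 of the 9, beside 22.8% of all tested probe sets. CLB3 is among these 6 by a small margin, at 277 in [gar-] culture 2 against 276 in [gar-] culture 1. All 9 genes were measured on the same 6 arrays, so their orders are not independent of each other. The shares over all tested probe sets include dim ones, so they are not matched to these 9 genes.

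In limma's F-test of the culture number, fitted beside the prion state, 0 of 10 genes passed, against a background of 0.646% (42 probe sets, and 22 to 664 with 1 array left out). CLN3 came nearest, with an unadjusted p of 0.000990 and an adjusted p of 0.0756, and a span of 1.07 (log2) between the lowest and the highest number. CLN3 did pass where only probe sets with a mean signal of at least 50 were tested (adjusted p = 0.0483), without [GAR+] culture 2 (0.00322), without [gar-] culture 2 (0.0100) and without both arrays numbered 2 (0.0291). CLB1 passed without [GAR+] culture 2 (0.0202) and CLB3 without [gar-] culture 2 (0.0477). Over all probe sets, 100 of 4838 passed at a mean signal of at least 50 and 79 of 6504 without both arrays numbered 2. Without [GAR+] culture 2 it was 508 of 6504, and without [gar-] culture 2 it was 664 of 6504, beside 2 of 10 members in each. In these last settings number 2 rests on 1 array. CLB2 spanned 0.83 (adjusted p = 0.131), CLB1 0.70 (0.203) and CLN1 0.53 (0.299). CLN3, CLB2, CLB1 and CLN1 had an unadjusted p under 0.05 in the F-test, 4 of 10 genes against a background of 16.1%. CLB4 spanned 0.50 and CLB5 0.44. CLB3, CLN2 and CLB6 spanned 0.38, 0.31 and 0.24, and SIC1 had the smallest span, 0.12.

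Set as a contrast, cultures numbered 2 read higher than the mean of numbers 1 and 3 in 8 of the 9 genes above the controls. That held for 52.7% of all tested probe sets. Number 2 was singled out because its arrays stood apart in earlier results of these data. The p-values and intervals below therefore describe that choice and are no independent test of it. The log2 difference was 0.71 for CLN3 (95% confidence interval 0.36 to 1.07), 0.62 for CLB2 (0.26 to 0.97), 0.46 for CLN1 (0.10 to 0.82), 0.44 for CLB1 (0.06 to 0.83) and 0.39 for CLB4 (0.03 to 0.74). These 5 had an unadjusted p under 0.05 on the higher side, where the background was 10.3%. The limma adjusted p was 0.0612 for CLN3 and 0.0827 for CLB2, so 0 of 10 passed, against a background of 0.461% on the higher side. CLN3 passed at a mean signal of at least 50 (limma adjusted p = 0.0437) and without [GAR+] culture 2 (0.00639). CLB1 passed without [GAR+] culture 2 (0.0313) and CLB3 without [gar-] culture 2 (0.0224). At a mean signal of at least 50, 1 of 9 members passed, beside 229 of 4838 probe sets (60 higher). Without [GAR+] culture 2 it was 2 of 10, beside 604 of 6504 (180 higher). Without [gar-] culture 2 it was 1 of 10, beside 740 of 6504 (255 higher). Dropping either of these arrays leaves number 2 with 1 array. CLB3 and CLB5 gave 0.36 and 0.35, with intervals that reached below 0. CLN2 ran the other way at -0.19 (-0.52 to 0.15), and SIC1 gave 0.09 (-0.24 to 0.42), a sign that turned without normalization (-0.0315, relative to the median of all probe sets). The median of the 10 was 0.37, beside 0.02 over all tested probe sets.

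The order of the cultures was not the same in the signals as deposited, whose scale differed between arrays. In those signals CLN3 read 408, 271 and 421 in [GAR+] cultures 1, 2 and 3, against 206, 520 and 288 in [gar-] cultures, so that culture 2 was the highest [gar-] but the lowest [GAR+] value. The array of [GAR+] culture 2 had the lowest trimmed mean, 192, and that of [GAR+] culture 1 the highest, 500. Without normalization the contrast had a median of -0.39 over all tested probe sets, and relative to it CLN3 stood at 0.62 and CLB2 at 0.51, against 0.71 and 0.62 with normalization. The ratio of actin signal from the 3′ end to that from the 5′ end of the transcript, a measure of RNA integrity and labelling, also moved with the number. It was 1.31, 1.04 and 1.29 in [GAR+] cultures 1, 2 and 3 and 1.64, 1.17 and 1.42 in [gar-] cultures, lowest in number 2 of each group. The same ratio for SPT15, the TATA-binding protein gene, was 2.82, 3.41 and 2.98 in [GAR+] cultures and 2.98, 1.85 and 2.82 in [gar-] cultures, with no order shared by the groups. The part of either measure in the result was not tested.

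**Figure D3:**
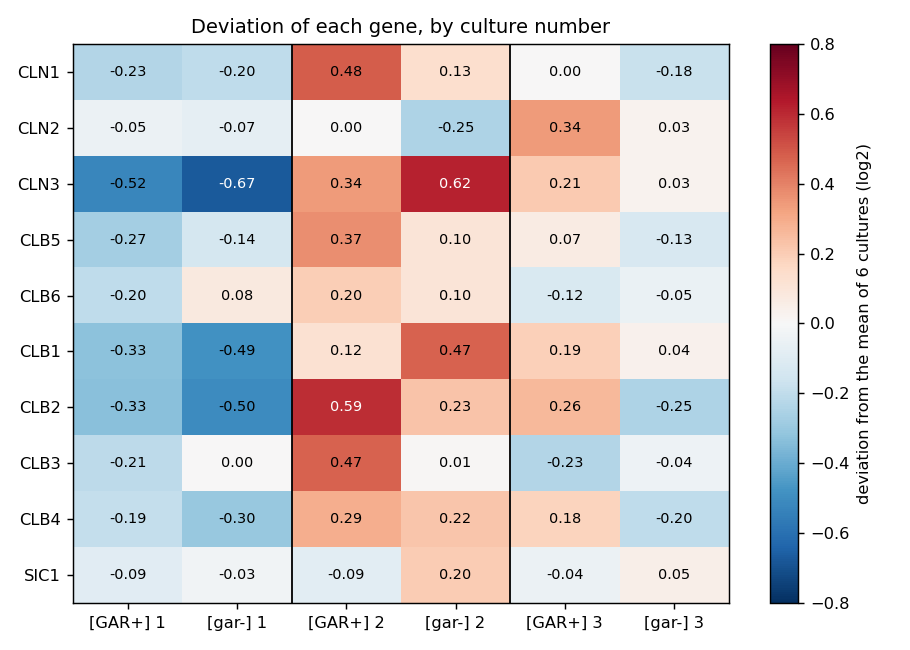
Deviation of each gene from its mean over the 6 cultures, in log2(normalized signal + 16), with arrays ordered by culture number and [GAR+] left of [gar-] within a number. Red is above and blue below the mean of that gene. Both cultures numbered 1 lie below the mean for every gene except CLB3 and CLB6, CLN3 reaching -0.52 in [GAR+] and -0.67 in [gar-], while both cultures numbered 2 lie above it for every gene except CLN2 and SIC1.

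Across the 6 cultures most of the cyclin genes varied alike. These correlations are descriptions over 6 arrays on the log2(signal + 16) scale, and the arrays share a normalization and pair up by number. Pearson's r was 0.98 for CLN3 with CLB1, for CLB2 with CLB4 and for CLN1 with CLB5. CLN2 stood aside, with r between -0.54 (SIC1) and 0.19 (CLB2), and -0.04 with its paralogue CLN1. The other pairs of closest relatives gave 0.77 for CLB1 with CLB2, 0.44 for CLB3 with CLB4 and 0.73 for CLB5 with CLB6. CLB2 (YPR119W) and CLB5 (YPR120C) are next to each other in the gene order of assembly R64, as are CLB1 (YGR108W) and CLB6 (YGR109C). The first pair gave 0.94 and the second 0.28, where CLB6 was below the controls.

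Many genes outside the set matched as closely. Of 3644 other genes with a mean signal of at least 100, 103 correlated with CLB2 above 0.9, 108 with CLB5, 36 with CLN2 and 28 with SIC1. The nearest to CLB2 were UBP10, a deubiquitinase gene (r = 0.998), CWC2, of the spliceosome (0.996), and GCD7, of the translation initiation factor eIF2B (0.995). The nearest to CLB5 were YMR209C (0.997), PTH2, a peptidyl-tRNA hydrolase gene (0.987), and MPP10, of ribosome biogenesis (0.987). CLN2 was nearest to the phosphatidylserine synthase gene CHO1 (0.991), the cell wall mannoprotein gene FIT2 (0.982) and MRPL28, of the mitochondrial ribosome (0.975). SIC1 was nearest to EPT1, of phospholipid synthesis (0.982), MTG1, a mitochondrial GTPase gene (0.980), and SMF2, a manganese transporter gene (0.976).

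**Figure D4:**
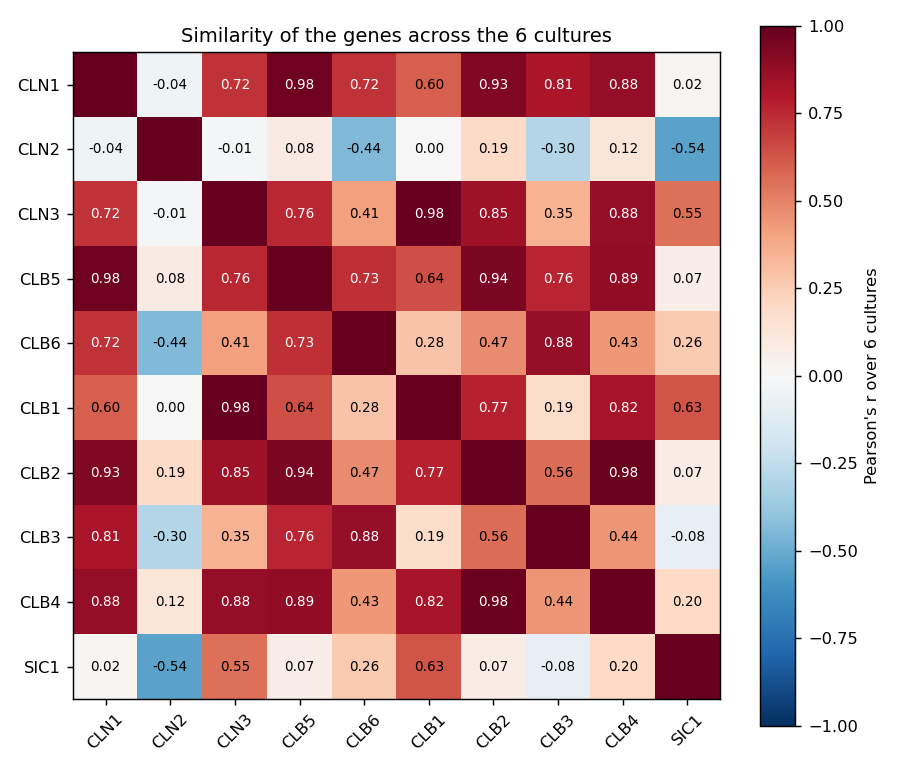
Pearson's r between each pair of the 10 genes over the 6 cultures, on log2(normalized signal + 16), red for positive and blue for negative values. The row of CLN2 is pale or blue throughout, from -0.54 with SIC1 to 0.19 with CLB2. The deepest red cells join CLN3 with CLB1, CLB2 with CLB4 and CLN1 with CLB5 (0.98 each), and several other pairs are nearly as red.

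The partners of the cyclins were described from 11 lists holding 126 genes, of which 120 were measured. None passed for [GAR+] against [gar-] (0 of 120, limma), and 7 had an unadjusted p under 0.05, 5.83% beside the 2.98% of all tested probe sets. Of the 120, 69 were above 0 and 51 below, with a median of 0.03, where 51.8% of all tested probe sets were above 0. The kinase gene CDC28 gave -0.09 and CKS1, of the kinase's small accessory subunit, 0.12. FAR1, of the inhibitor that arrests cells on pheromone, gave 0.02, and SWE1, of the kinase that inhibits Cdc28, -0.17. The gene of the opposing phosphatase, MIH1, read 47.0, 46.0 and 52.0 in [GAR+] cultures, against 50.6, 88.8 and 78.6 in [gar-] cultures, a difference of -0.44 with an unadjusted p of 0.0474 in limma. The groups of MIH1 overlapped.

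Of 10 regulators of G1/S transcription, 6 were above 0 and 4 below, and 0 passed. SWI6, whose protein is shared by SBF and MBF, gave -0.001, SWI4, of SBF, 0.11, and WHI5, the repressor gene, -0.06. MBP1, of MBF, read 139, 110 and 119 in [GAR+] cultures, against 108, 90.6 and 97.1 in [gar-] cultures, without overlap, and gave 0.27. XBP1, a repressor gene whose protein acts on CLN promoters, gave -0.22 and was below the highest control on 5 of 6 arrays, with means of 12.5 in [GAR+] and 17.1 in [gar-]. The 22 measured targets of these factors had a median of 0.08, with 14 above 0, beside 51.8% of all tested probe sets. HCM1, the gene of an S phase forkhead factor, gave 0.57 (0.30 to 0.84 with 1 array left out), and PCL1, of a cyclin of the kinase Pho85 that is induced with CLN2, gave 0.47 (0.13 to 0.89). PCL1 read 28.6, 111 and 73.6 in [GAR+] cultures, against 28.1, 69.2 and 34.9 in [gar-] cultures, so its spread over the numbers exceeded that between the groups.

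All 7 listed regulators of G2/M transcription were above 0, beside 51.8% of all tested probe sets, and none passed. HCM1 and YOX1, of these 7, are also counted among the G1/S targets. MCM1 gave 0.13, FKH2 0.12 and NDD1 0.13, and their products together induce CLB1 and CLB2. With 1 array left out, FKH2 turned to -0.0669 (without [gar-] culture 2) and NDD1 to -0.00531 (without [GAR+] culture 3). YHP1, of a homeodomain repressor that acts with Mcm1, gave 0.33 (0.0475 without [GAR+] culture 2 and 0.61 without [GAR+] culture 1). The 14 measured G2/M targets had 7 above and 7 below 0. SWI5, of the factor that induces SIC1 at the end of mitosis, read 137, 204 and 147 in [GAR+] cultures, against 110, 105 and 123 in [gar-] cultures. Every [GAR+] value of SWI5 was higher, and the difference was 0.45 (limma, unadjusted p = 0.0353). SWI5 did not pass, and SIC1 ran the other way at -0.15. MYO1, of the myosin of the contractile ring, gave -0.42, but 4 of its 7 other, dimmer probe sets were above 0.

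Early G1 genes, which are induced in the same window as SIC1, were above 0 in 13 of 18 cases, with a median of 0.20. Of all tested probe sets, 51.8% were above 0. None of the 18 passed. DSE4, of a daughter cell glucanase that helps mother and daughter to separate, read 612, 801 and 729 in [GAR+] cultures, against 451, 492 and 511 in [gar-] cultures. The groups of DSE4 did not overlap, and the difference was 0.54 (limma, unadjusted p = 0.00730), without passing. SUN4, of a cell wall protein of septation, gave 0.37 and DSE1 0.52 (0.0375 without [gar-] culture 2). DSE1 read 40.6 in [gar-] culture 2 and 116 to 168 in the other 5 cultures.

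For the machinery that destroys cyclins and Sic1, 6 of 8 SCF genes were above 0 and 11 of 16 genes of the anaphase-promoting complex below 0, and 0 passed. Over all tested probe sets 51.8% were above 0 and 48.2% below. CDC4, whose product targets Sic1, gave 0.03. HRT1, the RING subunit gene of SCF, gave 0.27 and MET30, of another F-box protein, -0.37. CDC20 and CDH1, of the activators of the anaphase-promoting complex, gave -0.08 and 0.14. MND2, of an inhibitory subunit, read 63.6, 64.8 and 43.4 in [GAR+] cultures, against 95.6, 81.5 and 77.5 in [gar-] cultures, without overlap, and gave -0.47. CDC16, of a core subunit, gave -0.49 (-0.74 to -0.24 with 1 array left out). Of 11 genes of the mitotic exit network, 4 were above 0 and 7 below, with MOB1, of the Dbf2 kinase activator, at -0.47. Of 11 genes of Pho85 and its cyclins, 6 were above 0, and PCL7 stood at -0.45 (-0.22 without [GAR+] culture 2). The core histone genes HTB1 and HTB2, transcribed in S phase, gave 0.15 and 0.07, and the probe sets of the other 6 are shared between gene copies and were not used.

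On the culture number, 2 of the 120 genes passed in the contrast of number 2 against numbers 1 and 3, both higher, beside the background of 0.461%. HCM1 read 59.9, 134 and 78.9 in [GAR+] cultures, against 43.1, 83.3 and 39.8 in [gar-] cultures, and the contrast was 0.81 (limma adjusted p = 0.0482). YHP1 read 65.8, 161 and 105 in [GAR+] cultures, against 57.8, 117 and 74.6 in [gar-] cultures, and the contrast was 0.77 (limma adjusted p = 0.0490). PCL1 gave 0.93 and did not pass (limma adjusted p = 0.0570), but passed with a pseudocount of 64 (0.0483). It also passed at a mean signal of at least 50 (0.0391), where 229 of 4838 probe sets passed, 60 of them higher. The contrast of PCL1 was 1.09 without [gar-] culture 1 and 1.00 without [gar-] culture 2. In all 3 genes culture 2 was the highest of each group. Both calls were lost without [GAR+] culture 1 (adjusted p = 0.142 for HCM1 and 0.155 for YHP1), without [GAR+] culture 3 (0.102 and 0.121), without [gar-] culture 1 (0.0615 and 0.0712) and without [gar-] culture 3 (0.153 and 0.157). Of the 120, 20 had an unadjusted p under 0.05 on the higher side, or 16.7% beside a background of 10.3%. All 14 measured G2/M targets were higher in number 2, beside 52.7% of all tested probe sets, with a median of 0.24. None of these targets passed, and 4 had an unadjusted p under 0.05 in limma. The 18 early G1 genes had a median of -0.04.

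**Figure D5:**
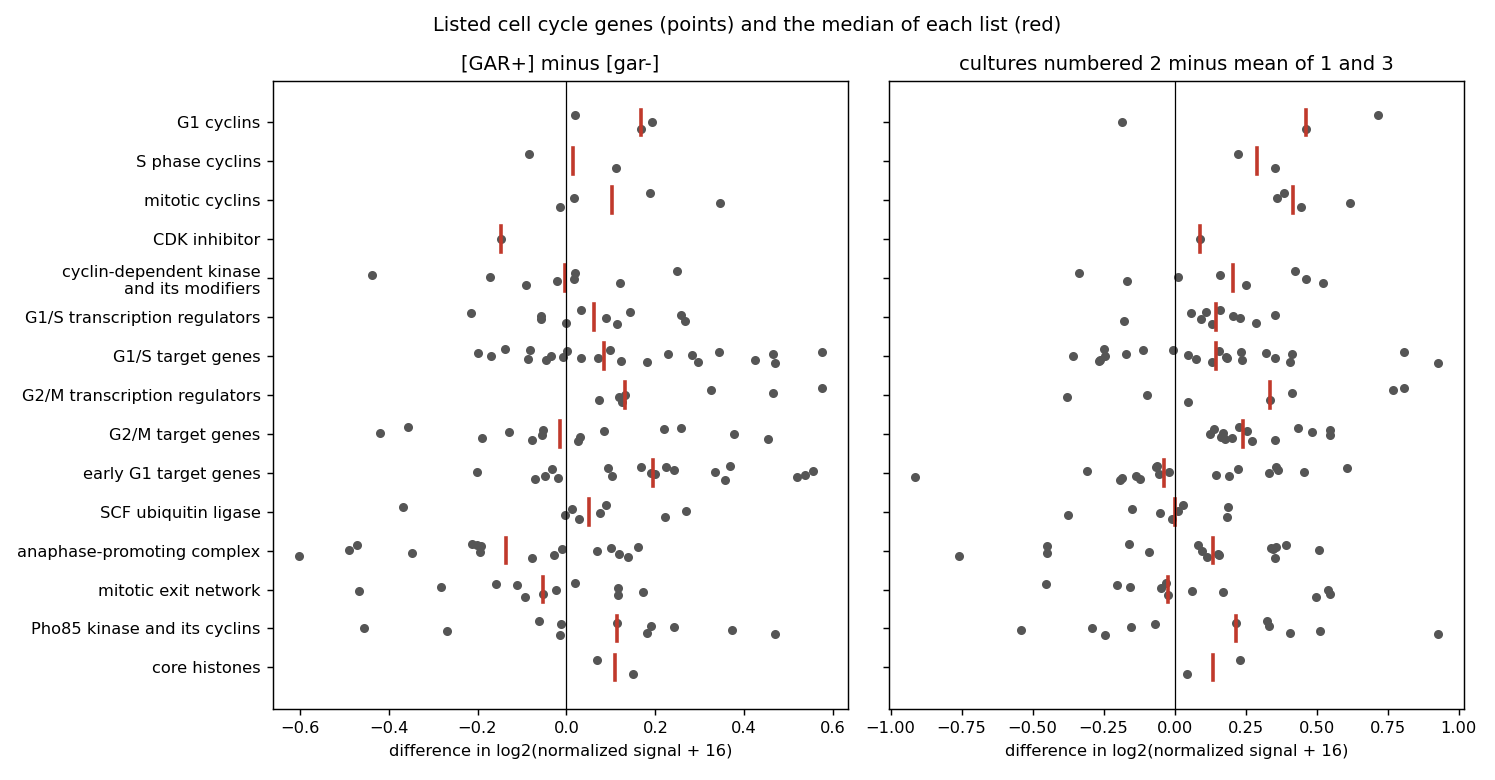
Differences in log2(normalized signal + 16) for the genes of each list (points) with the median of the list (red line), for [GAR+] minus [gar-] on the left and cultures numbered 2 minus the mean of numbers 1 and 3 on the right. On the left the medians lie between -0.15 (SIC1 alone) and 0.20 (early G1 targets). On the right the G1, S phase and mitotic cyclins have medians of 0.46, 0.29 and 0.41. The S phase list holds only CLB5 (0.35) and CLB6 (0.22), which was below the controls. In the G1 list CLN2 lies at -0.19.

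Markers of other yeast cell types and states gave 0 passing genes in either comparison. Genes of mating type a were above the controls on every array (5 of 5), with summed signals of 6166 to 8167 in [GAR+] and 5114 to 6564 in [gar-] cultures. The 4 genes of mating type alpha summed to 108 to 138 in [GAR+] and 103 to 116 in [gar-] cultures, and SAG1 was above the controls on all 6 arrays. Of 7 meiosis genes, SPO11, SPO13 and SMK1 were at or below the highest control on all 6 arrays. IME1 (28.5 to 79.0) and NDT80 (28.7 to 49.3) exceeded it on all 6, and IME2 and SPS1 on some. The meiosis list summed to 112 to 164 in [GAR+] and 130 to 179 in [gar-] cultures. The 8 stationary phase genes summed to 361 to 543 in [GAR+] and 537 to 683 in [gar-] cultures. Their median difference was -0.23, with 6 of 8 below 0, beside 48.2% of all tested probe sets. In number 2 the stationary phase list had a median of -0.17 (2 of 8 above 0), the reverse of the cyclins. Its part in the culture number pattern was not tested.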

How the data were processed

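Poly(A) RNA of 6 cultures was measured on 6 arrays. The deposited values are linear signal intensities that the authors made with MAS5 and GCOS, per the submitters' processing notes, which give no versions or scaling target. Of 9335 probe sets, 6504 had exactly 1 gene in the platform's annotation and entered the tests. Another 328 stood for several genes, and 2503 had no name there. Symbols were matched by gene identifier to assembly R64 (6504 matched), which served for names and gene order only.

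Signals of all probe sets were quantile-normalized and analysed as log2(signal + 16) with limma 3.58.1 (lmFit, eBayes with trend) in R 4.3.3. Tests are two-sided, with Benjamini-Hochberg adjustment over all tested probe sets and a threshold of 0.05. The culture number was tested by limma's F-test with 2 coefficients, and number 2 against the mean of 1 and 3 as a contrast. Steps were tested on simulated data. Alternatives changed the normalization, pseudocount, filter on dim probe sets, moderation, replicate block, probe set and arrays used. Precision is limited by the 3 arrays per group, with a median standard error of 0.18 over all tested probe sets.

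The members, lists and tests were chosen with earlier results of these data known. Named genes are the members, the regulators, HXT3, up to 4 genes of each list that passed or else the 2 of smallest p per comparison (not all are given), and for CLN2, CLB5, CLB2 and SIC1 the 3 genes of highest correlation. A gene with several probe sets was represented by that of highest mean.

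As a check of pairing, [GAR+] and [gar-] arrays numbered 1, 2 and 3 deviated from their group means with correlations of 0.322, 0.347 and 0.346, and arrays of unlike numbers with -0.311 to 0.0751. Pairing rests on these values only. The labels describe separate cultures.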

Additional observations from a re-analysis of the deposited data

How the results depend on the processing

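For [GAR+] against [gar-], HXT3 was the 1 probe set that passed under every alternative listed in advance, the replicate block among them, and 0 members passed in any. With the replicate block and without both arrays numbered 2, an alternative chosen after seeing the data, 2 passed, HXT3 and HXT6. The block changed no call. Leaving out 1 array in turn, the log2 difference took both signs for CLN1 (-0.0320 to 0.33), CLN3 (-0.31 to 0.33), CLB5 (-0.0446 to 0.27), CLB1 (-0.26 to 0.22), CLB3 (-0.21 to 0.14), CDC28 (-0.274 to 0.0814), CKS1 (-0.0941 to 0.25), SWI4 (-0.0184 to 0.26), SWI6 (-0.18 to 0.16), WHI5 (-0.12 to 0.0430), FAR1 (-0.15 to 0.16), FKH2 (-0.0669 to 0.26), NDD1 (-0.00531 to 0.23), CDC4 (-0.0322 to 0.0721) and CDC20 (-0.21 to 0.0820). CLB2 (0.14 to 0.60), CLN2 (0.0726 to 0.27), CLB4 (0.0843 to 0.35), CLB6 (-0.20 to -0.00396) and SIC1 (-0.20 to -0.0818) kept their sign under every alternative run, which for CLB6 did not include a mean signal of at least 50. Without both arrays numbered 2, with or without the replicate block, values of the opposite sign were 0.15 for CLB1, -0.20 for CLB3, 0.0881 for CDC28, 0.12 for SWI6, -0.00542 for FAR1 and 0.00293 for SWE1. With trimmed-mean scaling CLB1 gave 0.000272 and SWI6 0.0129, and with a pseudocount of 1 SWI6 gave 0.00283. Other probe sets of MYO1 gave 0.25, 0.53, 0.10 and 0.46. For all these genes the cause was not tested.

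For the culture number, the count of 42 passing probe sets was 2 without normalization between arrays, 100 at a mean signal of at least 50, 16 without an intensity trend, 79 without both arrays numbered 2, and 22 to 664 with 1 array left out (508 without [GAR+] culture 2, 664 without [gar-] culture 2, 66 without [gar-] culture 1, 22 without [GAR+] culture 3 and 26 without [gar-] culture 3). The remaining array of that number is then assumed to vary like the others. For members the count of 0 was 1 (CLN3) at a mean signal of at least 50 and 1 (CLN3) without both arrays numbered 2, and it ranged from 0 to 2 with 1 array left out (CLN3 with CLB1, adjusted p = 0.0202, without [GAR+] culture 2, and CLN3 with CLB3, 0.0477, without [gar-] culture 2). For number 2 against 1 and 3, the count of 140 (30 higher, 110 lower) was 2 (0 higher) without normalization, 147 (17 higher) with trimmed-mean scaling, 229 at a mean signal of at least 50, and 41 to 740 with 1 array left out (604 and 740 without [GAR+] or [gar-] culture 2, 52 without [GAR+] culture 1, 41 without [GAR+] culture 3 and 73 without [gar-] culture 3). Members passed in 0 to 2 cases with 1 array left out, and 1 (CLN3, adjusted p = 0.0437) at a mean signal of at least 50. SIC1 changed sign in that contrast without normalization, at -0.0315 relative to the median of all, and ranged from -0.0190 to 0.19 with 1 array left out. HCM1 and YHP1 also missed the threshold without normalization, with trimmed-mean scaling and with a pseudocount of 1. The cause was not tested.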
